A study of Mus musculus with 18 samples.

Results

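Gapdh, Pgk1, Cltc, Gusb, Hprt and Tubb5 are the housekeeping genes of an nCounter mouse inflammation panel and make up 6 of the 254 genes of the deposited table. They were picked by name and divided by function into 2 glycolytic genes, Gapdh and Pgk1, and 4 others. All 6 passed the filter on low signal. The panel, which counts color-coded probes hybridised to unamplified RNA, was run on 100 ng of total RNA from the TA muscle of male mice in tumor models of cachexia, a wasting syndrome that depletes muscle and fat. The 18 samples form 6 groups of 3. In the C26 model, CD2F1 mice given cells of the C26 colon carcinoma line were set against CD2F1 mice without tumors. The LLC model set C57/B6 mice given Lewis lung carcinoma (LLC) cells against C57/B6 mice without tumors. In the KPP model, C57/B6 mice with tumors induced by tamoxifen were set against C57/B6 mice without tumors. The labels used here give neither the alleles behind the name KPP nor the ages, and do not say whether KPP controls received tamoxifen. Samples carry the letters A to C within a group. The labels do not state that each sample is a separate mouse, so p-values measure the spread between samples, which may be technical.

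Housekeeping genes serve as an internal yardstick in expression assays, on the premise that every cell makes their transcripts at a steady rate. Gapdh encodes glyceraldehyde-3-phosphate dehydrogenase and Pgk1 encodes phosphoglycerate kinase 1, the enzyme that acts on its product in glycolysis. Skeletal muscle, fast fibers above all, depends on glycolysis for ATP and is rich in both enzymes. Cltc encodes the heavy chain of clathrin, which coats endocytic vesicles, and Gusb the lysosomal beta-glucuronidase. Hprt encodes the purine salvage enzyme hypoxanthine phosphoribosyltransferase, and Tubb5 a beta tubulin of microtubules.

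The promoters of the glycolytic pair are shown because these genes moved together in C26 muscle and are both known targets of the hypoxia-inducible factors, which bind a short core of ACGTG or GCGTG. Each window covers 250 bases before to 50 bases after the RefSeq start of transcription on GRCm38.p6, and capitals mark that core on either strand (CACGT and CACGC are its reverse complements). The Gapdh window lies at chr6:125165724-125166023 on the minus strand and the Pgk1 window at chrX:106186850-106187149 on the plus strand.
Gapdh: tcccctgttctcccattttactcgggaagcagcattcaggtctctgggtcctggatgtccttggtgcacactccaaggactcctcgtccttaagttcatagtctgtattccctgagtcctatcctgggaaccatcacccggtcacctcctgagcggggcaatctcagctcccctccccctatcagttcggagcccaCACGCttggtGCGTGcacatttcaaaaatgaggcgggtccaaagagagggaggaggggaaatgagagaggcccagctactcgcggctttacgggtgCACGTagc
Pgk1: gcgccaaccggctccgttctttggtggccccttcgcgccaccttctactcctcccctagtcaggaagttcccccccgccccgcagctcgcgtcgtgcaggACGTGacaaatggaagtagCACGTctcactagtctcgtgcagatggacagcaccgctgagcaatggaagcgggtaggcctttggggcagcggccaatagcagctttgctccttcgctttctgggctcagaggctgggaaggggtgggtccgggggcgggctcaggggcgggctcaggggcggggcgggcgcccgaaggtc

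The Gapdh window holds 3 such cores and the Pgk1 window 2. Among the 4 others, Tubb5 holds 3, of which 2 are the strands of a single palindrome, CACGTG. Cltc and Gusb hold 1 each and Hprt 0. Of 32851 RefSeq windows of 300 bases, 43.8% hold at least 1 core, so a single match is common. At least 3, the number in the Gapdh and Tubb5 windows, occur in 8.9%. The share with at least 2, the number in the Pgk1 window, was not counted. The GC box GGGCGG, searched on both strands, occurs 5 times in the Pgk1 window, 3 times in that of Hprt, 2 times in that of Tubb5, once in that of Cltc and in neither that of Gapdh nor that of Gusb, and 35.7% of all windows hold it at least once and 5.5% at least 4 times. These matches describe the letters of the windows and show no binding.

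The deposited signal was scaled within each model to a common geometric mean of the 6 genes, which was 532 for all C26 samples, 591 for LLC and 1769 for KPP. A change of a single housekeeping gene is therefore relative to the other 5, while the ratio of any pair within a sample does not depend on the scaling. Counts behind the signal, read from the steps between low values, totalled 29743 to 50788 in C26 tumor-bearing and 75599 to 95047 in C26 control samples. LLC samples held 41888 to 106922 counts, and KPP samples 61276 in control B to 402845 in tumor B. The RNA carried transcripts of the 4 measured muscle fiber markers (Myl2, Hspb2, Mef2c and Mef2d, of 6 listed), whose summed signal lay between 2070 and 14021. Control A of C26 stood apart by the signals of other cell types, with summed macrophage markers of 3897 against 850.1 and 1061 in controls B and C. Tumor B of KPP stood apart by its depth and by the lowest glycolytic share of any KPP sample.

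The C26 comparison asked what sets TA muscle of mice bearing C26 tumors apart from matched CD2F1 controls. On the deposited scale, though not against spiked controls, both glycolytic genes rose: Gapdh averaged 15061 ± 1524 in tumor-bearing samples and 8773 ± 1529 in controls, and Pgk1 2103 ± 299 and 1167 ± 131 (SD, n = 3 each). Among the rest, none of the 4 others passed the test. Within each sample, the glycolytic pair gained over the 4 others by 2.34-fold on average, with no overlap between the groups. Signal per sample of all 6 genes, relative to the controls of the same model, is shown in the plot of the housekeeping genes by sample.

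**Figure D1:**
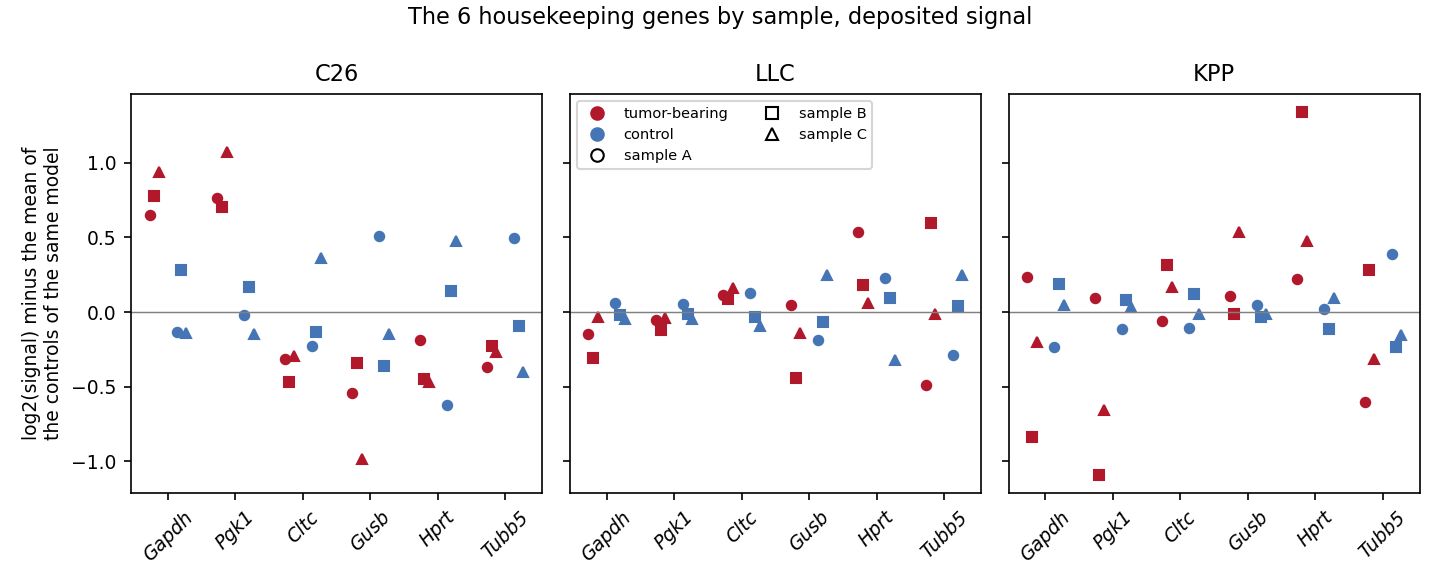
Deposited signal of each housekeeping gene per sample on a log2 scale, minus the mean of the 3 controls of the same model; each point is 1 sample, with its letter given by the symbol. On this scale, all C26 tumor-bearing points lie above all control points for Gapdh and Pgk1, while in LLC and KPP the 2 groups overlap for both genes.

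Gapdh had signals of 13618, 14910.3 and 16655 in C26 tumor-bearing samples A, B and C, against 7909, 10539 and 7871 in controls A, B and C. All 3 tumor-bearing samples were above all 3 controls, and the log2 fold change was 0.79 (SE 0.24, adjusted p = 0.0246 by limma over all 174 genes tested). Pgk1 had 1969, 1895 and 2445.5 in tumor-bearing samples, against 1146, 1308 and 1049 in controls. The groups again did not overlap, and the log2 fold change was 0.85 (SE 0.24, adjusted p = 0.0188 by limma). Of all genes tested 31% were called in C26, 10.3% as higher and 20.7% as lower. The 2 of 6 called are close to the share called in either direction. Both were higher, a direction in which 10.3% of all genes were called, and no member was called lower. The 6 genes were chosen with earlier results of these data known, so these shares were not tested against each other. The signals of 38.5% of genes tested did not overlap between the C26 groups. These calls rest on a spread shared by all 18 samples: in a fit of the 6 C26 samples alone neither gene passed (adjusted p = 0.127 for Gapdh and 0.109 for Pgk1). Leaving out each C26 sample in turn, Gapdh passed in 2 of 6 fits and Pgk1 in 5 of 6, and without tumor C neither did (adjusted p = 0.0758 and 0.0657); Gapdh also missed without control A (0.0548), control C (0.0559) or tumor B (0.0613).

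Among the 4 others, Cltc had 1286, 1156 and 1305 in C26 tumor-bearing samples, against 1363, 1456 and 2057 in controls. These signals did not overlap, but the log2 difference of -0.36 (SE 0.18) missed the threshold with an adjusted p of 0.139 by limma. Gusb had 59.6, 68.4 and 43.85 in tumor-bearing samples, against 123, 67.5 and 78.1 in controls, with a log2 difference of -0.61 (adjusted p = 0.0751 by limma). Tumor B lay above control B, Gusb was called lower without that control (-0.79, adjusted p = 0.0326 by limma), and the value of tumor C rests on 20 counts, with a counting error of 22.3%. Hprt had 106, 88.6 and 87.4 in tumor-bearing samples, against 78.8, 134 and 169 in controls. Tubb5 had 104, 114.5 and 111 in tumor-bearing samples, against 189, 125 and 101 in controls. Both sets of signals overlapped, and the log2 differences were -0.37 for Hprt (adjusted p = 0.363 by limma) and -0.29 for Tubb5 (adjusted p = 0.504). Controls varied more than tumor-bearing samples, with coefficients of variation of 11.3% for Hprt and 5.04% for Tubb5 in tumor-bearing samples, against 35.6% and 32.8% in controls.

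The ratio of the geometric mean of Gapdh and Pgk1 to that of the 4 others was 30.4, 31.6 and 41.5 in C26 tumor-bearing samples A, B and C, against 13.5, 18.4 and 12.6 in the controls. The lowest tumor-bearing sample was above the highest control. On the log2 scale the groups averaged 5.09 ± 0.25 and 3.87 ± 0.30 (SD, n = 3 each), a difference of 1.23. No p-value is given for this ratio, since the genes and their split were chosen with results of these data known. Each of the 8 pairs of a glycolytic gene with another was higher in tumor-bearing samples without overlap, by 2.11-fold for Gapdh over Tubb5 up to 2.76-fold for Pgk1 over Gusb. The pairs recombine the signals behind the ratio and are not separate support for it. How many pairs of other panel genes did not overlap was not counted in any model. Gapdh over Pgk1 was 6.92, 7.87 and 6.81 in tumor-bearing samples, against 6.90, 8.06 and 7.50 in controls. That pair overlapped, and the glycolytic genes kept nearly the same proportion to each other. The 6 pairs among the 4 others overlapped too, with folds between 0.794 for Gusb over Tubb5 and 1.20 for Cltc over Gusb.

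**Figure D2:**
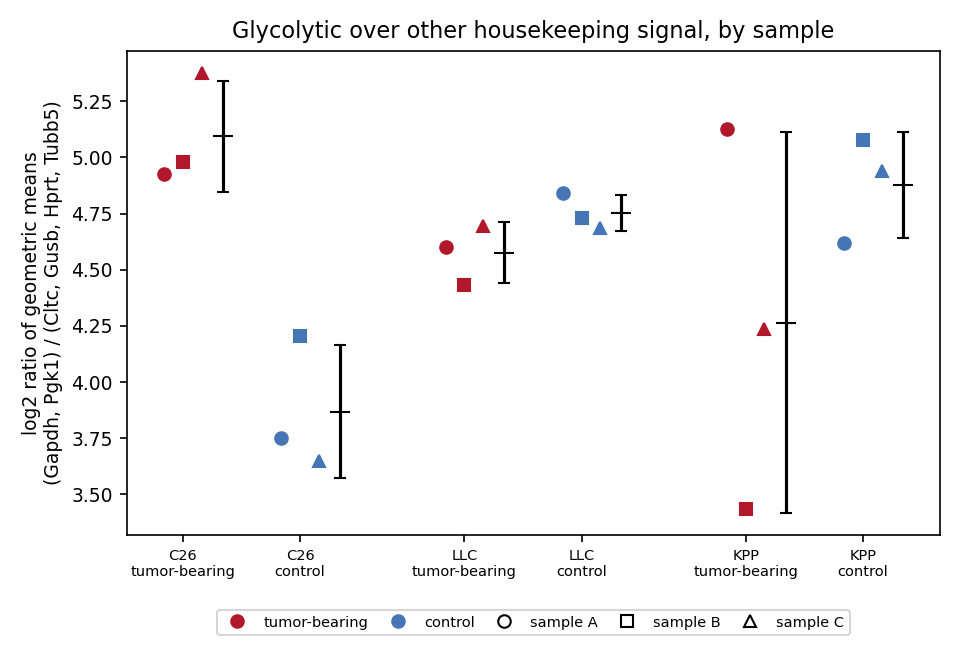
The log2 ratio of the geometric mean of Gapdh and Pgk1 to that of Cltc, Gusb, Hprt and Tubb5, 1 point per sample, with the mean and SD of each group of 3 in black. C26 tumor-bearing samples average 5.09 against 3.87 in C26 controls, while the LLC and KPP groups overlap.

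Markers of some other cells moved with the C26 groups, while those of endothelial cells did not. Endothelial markers (2 of 4 measured) summed to 236 to 299 in tumor-bearing samples, against 231 to 265 in controls, and none was called as deposited. Neutrophil markers (3 of 5 measured) summed to 3.36 to 22.4 against 17.2 to 60.3, so these groups overlapped. The 2 neutrophil markers tested were called lower, with signals at or under 20 in all tumor-bearing samples. The 7 measured of 12 macrophage and monocyte markers summed to 311 to 653 in tumor-bearing samples, against 850.1 to 3897 in controls, and 1 of the 7 averaged under 20 in tumor-bearing samples. Cfd, a fat cell gene and the measured 1 of 3 adipocyte markers, had 47.0 to 87.4 in tumor-bearing samples, against 1390 to 9604 in controls. Connective tissue markers (6 of 8 measured) summed to 702 to 1395 in tumor-bearing samples, against 1853 to 6595 in controls. That list moved both ways: C3, C1s and Mmp3 fell, while C7 (0.98, adjusted p = 0.0255 by limma) and Masp1 (0.96, adjusted p = 0.0394) rose. With the glycolytic pair as yardstick 0 of the 6 were called higher and 4 lower. Of all 174 genes tested on that scale, 3 were called higher and 95 lower. The 4 muscle fiber markers summed to 3899 to 4837 in tumor-bearing samples, against 2070 to 3442 in controls. Mef2c (mean signal 2713 against 1325) and Hspb2 (759 against 456) were called higher. Mef2d (697 against 669, adjusted p = 0.730 by limma) and Myl2 (92.3 against 98.5, adjusted p = 0.703) were not. In bulk muscle, fewer cells of a type and less RNA per cell cannot be told apart. The part of these cell types, and of the lower depth of the tumor-bearing samples, in the glycolytic ratio was not tested.

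Because the scaling fixes the mean of the 6 genes, their counts were also set against the spiked positive controls, synthetic targets added in equal amount to every reaction. Per 100 positive-control counts, Gapdh had 240, 321 and 186 counts in C26 tumor-bearing samples, against 219, 380 and 289 in controls, and Pgk1 had 34.8, 40.8 and 27.2 against 31.7, 47.1 and 38.6. Both overlapped, at 0.841-fold and 0.875-fold. Cltc had 22.7, 24.9 and 14.5 in tumor-bearing samples, against 37.7, 52.5 and 75.6 in controls, without overlap. Gusb, Hprt and Tubb5 also did not overlap, and the geometric mean of the 4 others stood at 0.367-fold in tumor-bearing samples. That is -1.45 on the log2 scale, close to the median of all genes tested on this scale (-1.33). How many of all genes tested did not overlap on this scale was not counted. On this scale limma gave Gapdh a log2 difference of -0.25 (adjusted p = 0.734) and Pgk1 -0.19 (adjusted p = 0.794). Gusb fell by 1.63 on the log2 scale (adjusted p = 0.0456 by limma), where 35.1% of genes tested were called and their median stood at -1.33, so this scale lowers most genes. The direction of single glycolytic genes in C26 thus depends on the yardstick.

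**Figure D3:**
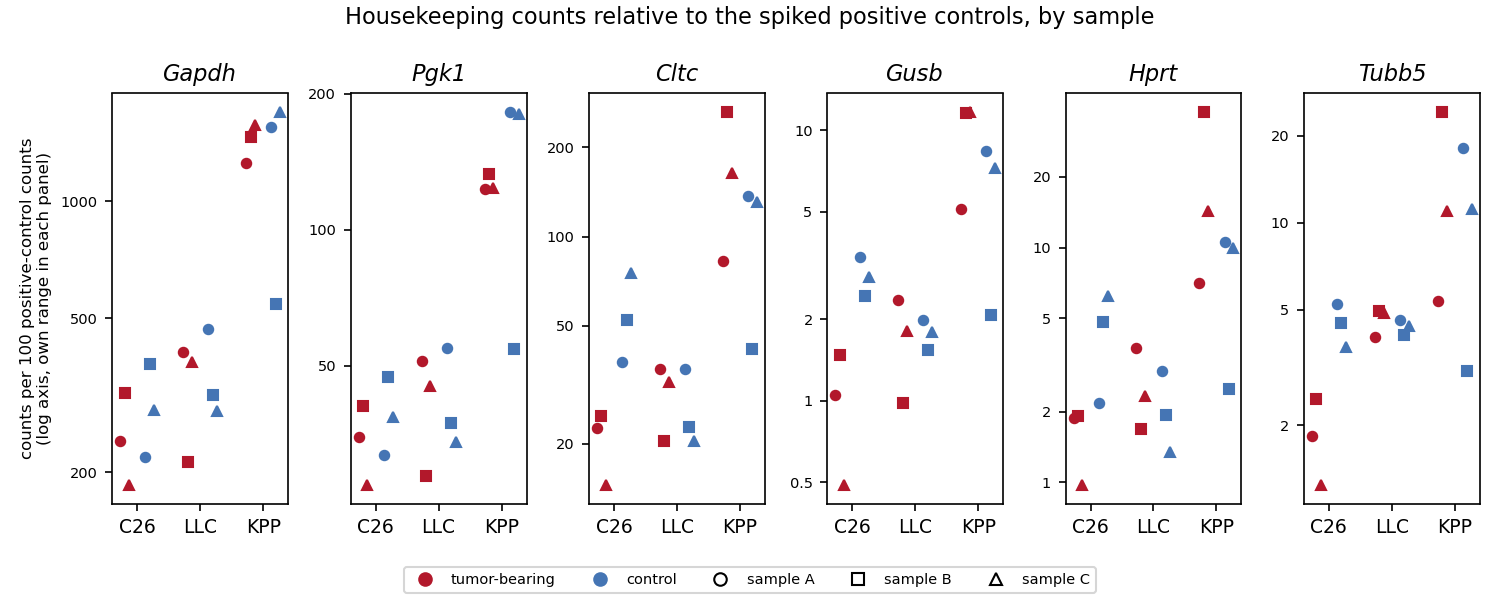
Counts of each gene per 100 counts of the spiked positive controls, 1 point per sample, on log axes with a range of their own for each gene. In C26 the groups overlap for Gapdh and Pgk1, and the tumor-bearing points lie below the control points for the 4 others. The median log2 difference of all genes tested in C26 was -1.33 on this scale, so most genes were lower.

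Gapdh alone took 25.2%, 26.1% and 25.7% of all counts in C26 tumor-bearing samples A, B and C, against 10.3%, 16.7% and 11.9% in the controls. Pgk1 took 3.32% to 3.78% in tumor-bearing samples, against 1.50% to 2.07% in controls. The shares of Cltc overlapped, at 2.01% to 2.38% in tumor-bearing samples and 1.78% to 3.11% in controls.

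The LLC comparison put the same question to C57/B6 mice given LLC cells, and no gene of the panel passed (0 of 174 genes called, with 5 at an unadjusted p under 0.05, 2.87% of genes tested). Gapdh had 14001, 12501 and 15135 in LLC tumor-bearing samples, against 16184, 15288 and 15008 in controls. Tumor C lay within the controls, and the log2 difference was -0.16 (95% interval -0.67 to 0.34, adjusted p = 1 by limma). Pgk1 had 1754, 1679 and 1771 in tumor-bearing samples, against 1891, 1807 and 1766 in controls, a log2 difference of -0.07 (95% interval -0.58 to 0.44). The groups overlapped by tumor C alone, which lay just above control C. Cltc had 1226, 1207 and 1269 in tumor-bearing samples, against 1238, 1107 and 1066 in controls. Gusb had 80.8, 57.8 and 71.2 in tumor-bearing samples, against 68.8, 74.9 and 93.2 in controls. In both genes each group held a sample inside the range of the other. Hprt had 127, 99.5 and 91.8 in tumor-bearing samples, against 103, 93.6 and 70.45 in controls. Tubb5 had 138, 293 and 192 in tumor-bearing samples, against 159, 199 and 230.0 in controls, the widest spread of any gene of the set in LLC. All 6 genes overlapped between the LLC groups, where 20.1% of genes tested did not.

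The glycolytic ratio was 24.3, 21.6 and 25.9 in LLC tumor-bearing samples, against 28.6, 26.5 and 25.7 in controls. The groups overlapped, and the log2 means of 4.58 ± 0.13 and 4.75 ± 0.08 (SD, n = 3 each) differed by -0.17; without tumor B the difference was -0.10. With Gusb as the sole divisor the difference turned to 0.06. Of the 15 pairs of genes 2 did not overlap, Gapdh over Cltc at 0.822-fold and Pgk1 over Cltc at 0.876-fold. Pairs of other panel genes were not counted. Macrophage markers summed to 629 to 904 in LLC tumor-bearing samples, against 467 to 540 in controls, and connective tissue markers to 1180 to 1504 against 1119 to 1160, both without overlap. None of these genes passed the test, and their part in the LLC values was not tested.

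The KPP comparison asked the same of mice with tamoxifen-induced tumors. None of the 6 genes passed, where 10.9% of genes tested were called. Gapdh had 60368, 28733 and 44724 in KPP tumor-bearing samples A, B and C, against 43605, 58446 and 53086 in controls. Tumor A was above all controls and tumor B below all of them, and the log2 difference was -0.27 (SE 0.24, adjusted p = 0.536 by limma). Pgk1 had 5909.9, 2600.4 and 3512 in tumor-bearing samples, against 5121, 5849.7 and 5657 in controls. Here too tumor A lay above the controls while tumors B and C lay below, with a log2 difference of -0.55 (SE 0.24, adjusted p = 0.166 by limma). Without tumor A, Pgk1 passed at -0.87 (adjusted p = 0.00811 by limma).

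Hprt had 341, 739.8 and 405 in KPP tumor-bearing samples, against 296, 269 and 312 in controls. All 3 tumor-bearing samples were above all 3 controls, as was the case in either direction for 29.9% of genes tested, yet the log2 difference of 0.68 (SE 0.30) did not pass (adjusted p = 0.182 by limma). Cltc had 3974, 5150.3 and 4638 in tumor-bearing samples, against 3843, 4487 and 4101 in controls, with tumor A inside the range of the controls. Gusb had 247, 228 and 332 in tumor-bearing samples, against 236, 224 and 227 in controls. Tubb5 had 257, 473 and 313 in tumor-bearing samples, against 510.3, 331 and 351 in controls. These 3 overlapped, and their log2 differences were 0.14, 0.21 and -0.21, each with an adjusted p of 0.677 or more by limma.

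The glycolytic ratio in KPP was 34.9, 10.8 and 18.9 in tumor-bearing samples A, B and C, against 24.5, 33.8 and 30.7 in controls. Tumor-bearing sample A had the highest ratio of the model and samples B and C the lowest, so the groups overlapped. The log2 means of 4.26 ± 0.85 and 4.88 ± 0.24 (SD, n = 3 each) differed by -0.61, less than the SD of the tumor-bearing samples, by -0.20 without tumor B and by -1.04 without tumor A. Gapdh took 30.7%, 11.8% and 18.3% of counts in tumor-bearing samples, against 22.7%, 29.6% and 27.6% in controls. Gapdh over Pgk1 did not overlap, at 10.2, 11.0 and 12.7 in tumor-bearing samples, against 8.52, 9.99 and 9.38 in controls, a 1.22-fold difference. Hprt also separated from 2 of the other genes without overlap, with Cltc over Hprt at 0.689-fold and Hprt over Tubb5 at 1.86-fold. Per positive-control counts the 4 others stood at 1.76-fold and the glycolytic pair at 1.15-fold, and every gene overlapped. Connective tissue markers summed to 1707 to 1921 in KPP tumor-bearing samples, against 3846 to 5512 in controls, with 3 of the 6 called lower and Masp1 called higher (1.18, adjusted p = 0.0345 by limma). Cfd had 420 to 921 in tumor-bearing samples, against 1201 to 5037 in controls. Endothelial markers (2 of 4 measured, Flt1 and Ptgir) summed to 1499 to 1918 in tumor-bearing samples, against 777 to 1015 in controls. These 3 sums did not overlap. Macrophage markers overlapped, at 984 to 2329 in tumor-bearing samples and 1338 to 2267 in controls. Muscle fiber markers summed to 11681 to 12934 in tumor-bearing samples, against 11871 to 14021 in controls. The part of these markers in the KPP values was not tested.

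The tumor effects of the 3 models were compared directly, in 18 tests of the 6 genes. The tumor effect on Pgk1 was larger in C26 than in KPP by 1.40 on the log2 scale (SE 0.34, adjusted p = 0.0104 by limma), and that on Gapdh by 1.06 (SE 0.34, adjusted p = 0.0422). In this contrast 16.7% of genes tested were called. The Pgk1 difference passed in all 18 fits that left out 1 sample each, while the Gapdh difference passed in 4 of 18 such fits and stood at 0.77 without KPP tumor B (adjusted p = 0.0978). With the spread taken from the C26 and KPP samples alone neither passed (adjusted p = 0.0625 for Pgk1 and 0.141 for Gapdh). Hprt had a difference of -1.04 (adjusted p = 0.104 by limma) and Gusb of -0.82 (adjusted p = 0.114). Between C26 and LLC, the differences were 0.95 for Gapdh (adjusted p = 0.0718 by limma) and 0.92 for Pgk1 (adjusted p = 0.0806), where 14.4% of genes tested were called. No member passed between LLC and KPP (0.575% of genes tested called), where Pgk1 had the widest gap of the glycolytic pair at 0.48 (adjusted p = 0.582). Each model was scaled to its own common mean, which cancels between its tumor-bearing and control samples. C26 mice were of another strain, so model, strain and any separate processing of the models cannot be told apart.

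Across groups, the geometric mean of the glycolytic ratio ran from 34.2 in C26 tumor-bearing samples through 29.4 in KPP controls, 26.9 in LLC controls, 23.9 in LLC tumor-bearing and 19.2 in KPP tumor-bearing samples to 14.6 in C26 controls. Each group overlapped its neighbor in that order. All 3 C26 controls, at 12.6 to 18.4, lay below every control of the other models, at 24.5 to 33.8, while C26 tumor-bearing samples, at 30.4 to 41.5, reached into the range of the KPP controls. The Gapdh share of counts was also lower in C26 controls, with 10.3% to 16.7% in C26 against 22.7% to 29.6% in LLC and KPP. Background was subtracted in C26 and KPP and not in LLC, and strain differed, so no test was made.

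How well the genes track each other was described by the SD of the log2 ratio of each of 15 pairs over the 6 samples of a model. Over all 6 samples Gapdh over Pgk1 was the steadiest pair in every model, with an SD of 0.11 in C26, 0.08 in LLC and 0.20 in KPP. With group means removed it was still the steadiest in C26 (0.11) and KPP (0.14), but in LLC Pgk1 over Cltc (0.047) was steadier than Gapdh over Pgk1 (0.070). The widest pairs were Pgk1 over Gusb in C26 (0.93), Hprt over Tubb5 in LLC (0.59) and Pgk1 over Hprt in KPP (1.00). The median over pairs was 0.69 in C26, 0.30 in LLC and 0.54 in KPP. By the mean of its 5 pairs, Cltc had the smallest spread in C26 (0.53) and KPP (0.44), and Pgk1 in LLC (0.22). Hprt had the largest in KPP (0.68), Gusb in C26 (0.67) and Tubb5 in LLC (0.48). These SDs hold the difference between tumor-bearing and control samples. With group means removed, Pgk1 (0.36) and Gapdh (0.37) had a smaller mean spread than Cltc (0.41) in C26, where Hprt and Gusb both stood at 0.53. In KPP Cltc was still the smallest (0.41), and Pgk1 (0.56) and Hprt (0.55) stood close together. Counting error is a larger part of the spread for genes of few counts: in C26 tumor-bearing samples it was at most 1.14% of a signal for Gapdh and 4.09% for Cltc, and reached 22.3% for Gusb and 15.8% for Hprt.

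**Figure D4:**
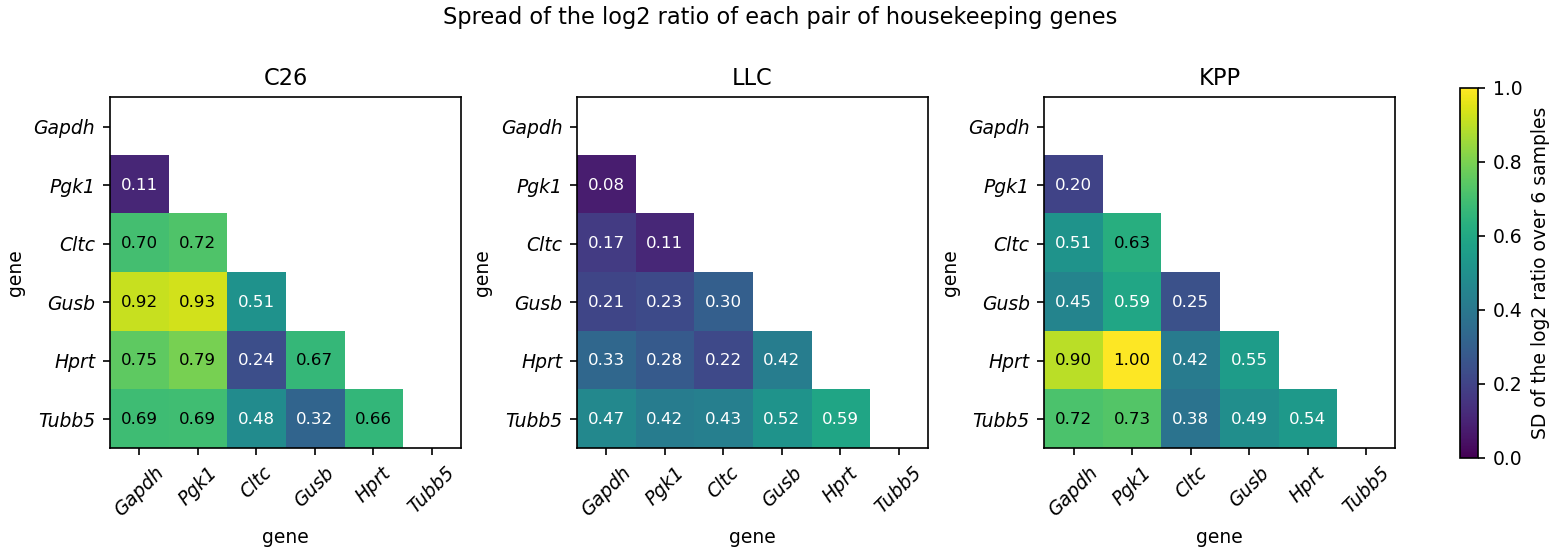
SD of the log2 ratio of each pair of housekeeping genes over the 6 samples of each model; darker cells are steadier pairs. The Gapdh and Pgk1 cell is the darkest in each model, at 0.11 in C26, 0.08 in LLC and 0.20 in KPP, and in C26 the cells joining these genes to the 4 others are between 0.69 and 0.93.

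Since the 6 genes set the scale for all others, the choice among them moved the calls of the whole panel. As deposited, 54 of 174 genes were called in C26, 18 higher and 36 lower in tumor-bearing samples, and the median log2 difference was -0.31. Scaled to Gapdh and Pgk1 alone, 3 were higher and 95 lower, with a median of -1.11. Scaled to the 4 others, 30 were higher and 19 lower, with a median of 0.09, and 37 of the 54 were still called. Single genes as the yardstick gave from 99 calls with Pgk1 to 23 with Hprt. With Gapdh or Pgk1 nearly all calls were lower in tumor-bearing samples, with Cltc or Gusb most were higher, with Hprt they were 11 higher and 12 lower, and with Tubb5 9 higher and 18 lower. Centring on the median of the panel gave 33 higher and 16 lower, quantile normalization 29 and 22, and the positive controls 1 and 60. In KPP the 19 calls as deposited (9 higher and 10 lower) became 4 and 4 with the glycolytic pair, 7 and 13 with the 4 others, and 1 and 18 with Hprt alone. In LLC no gene was called under any of these 12 scalings, with 0 to 6 genes at an unadjusted p under 0.05.

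**Figure D5:**
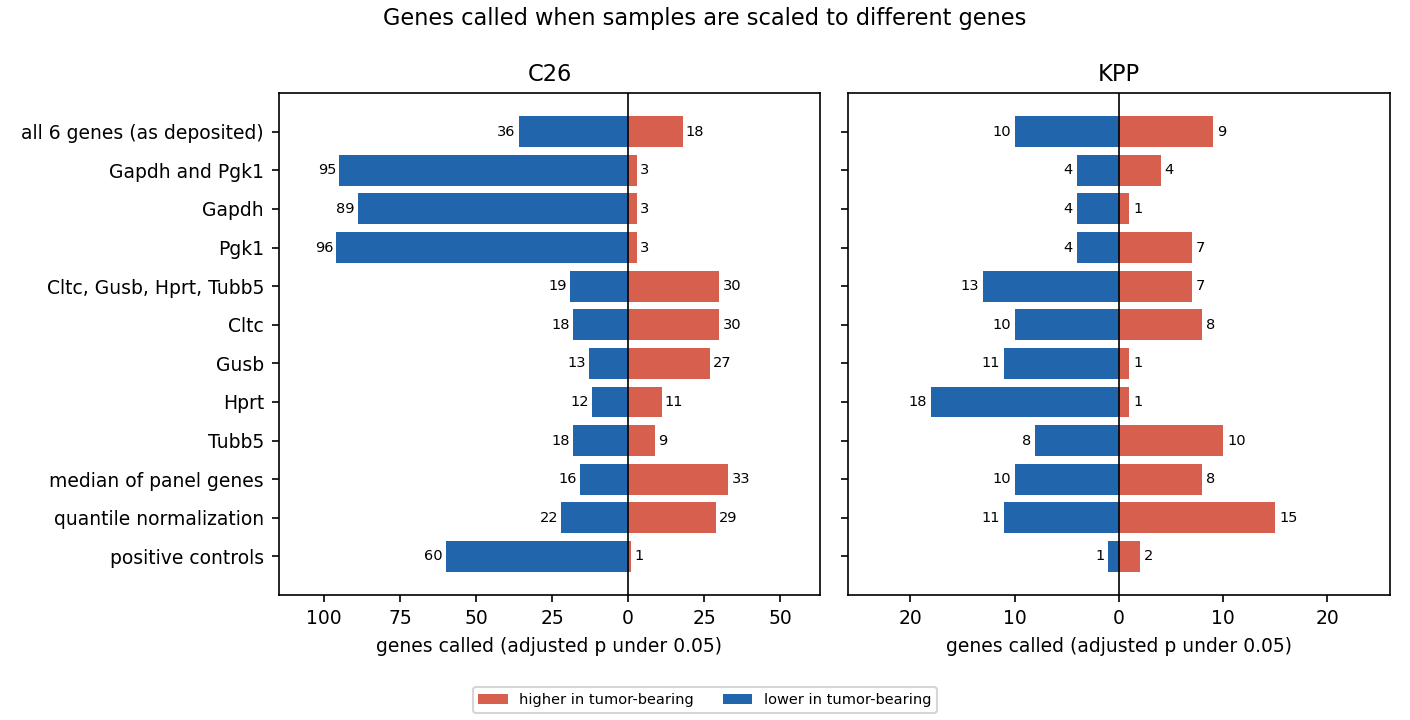
Number of genes called by limma (adjusted p under 0.05) as higher (right) or lower (left) in tumor-bearing samples, by the genes used to scale each sample, for C26 and KPP on axes of their own. In C26 the split is 3 higher and 95 lower with Gapdh and Pgk1, 30 higher and 19 lower with the 4 others, 33 and 16 with median centring, and 1 and 60 with the positive controls.

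Other genes tied to glycolysis and hypoxia were followed through a list of 13, of which 5 were measured (Hif1a, Flt1, Nos2, Pdgfa and Myc). Enzymes and transporters of that list, such as Ldha, Pkm, Hk2 and Slc2a1, were not analysed here. In C26, 1 of the 5 rose and 1 fell, with a list median of 0.06 against -0.31 for all genes tested, of which 10.3% were called higher and 20.7% lower. Pdgfa, a platelet-derived growth factor, stood at 0.31 (adjusted p = 0.184 by limma). It was called higher with median centring (0.88, adjusted p = 0.0370), with the 4 others as yardstick (0.72, adjusted p = 0.0257) and with quantile normalization (0.81, adjusted p = 0.0141). Its sign turned with the glycolytic pair (-0.50, adjusted p = 0.110) and with the positive controls (-0.72, adjusted p = 0.331), without passing. Nos2, the inducible nitric oxide synthase, rose by 1.34 on the log2 scale (adjusted p = 0.000266 by limma), with a mean signal of 31.7 in tumor-bearing samples against 12.0 in controls, near the filter limit of 20. Its call was lost on the scale of the glycolytic pair (0.57, adjusted p = 0.137) and on that of the positive controls (0.36, adjusted p = 0.623). Myc, a transcription factor that raises glycolytic gene expression in dividing cells, had a mean signal of 44.2 in tumor-bearing samples against 249 in controls. It fell by 2.27 on the log2 scale (adjusted p = 0.00692 by limma) and passed as lower under all 6 scalings computed for the list. Hif1a, the oxygen-regulated subunit of the hypoxia-inducible factor, averaged 358 in tumor-bearing samples against 494 in controls (-0.42, adjusted p = 0.124 by limma). With the glycolytic pair as yardstick it was called lower (-1.23, adjusted p = 0.0101), as was Flt1 (-0.75, adjusted p = 0.0494). On that scale 95 of 174 genes were called lower and the median log2 difference was -1.11. Hif1a thus lay near the median of all genes tested, and Flt1 above that median. In LLC 0 of the 5 passed. In KPP Flt1, a receptor of vascular endothelial growth factor, rose by 0.93 (adjusted p = 0.0122 by limma). It also passed with quantile normalization (0.91, adjusted p = 0.0117) and with the glycolytic pair (1.34, adjusted p = 0.0311). Flt1 missed with the 4 others as the yardstick (0.72, adjusted p = 0.0537), with median centring (0.93, adjusted p = 0.0509) and with the positive controls (1.53, adjusted p = 0.223). Hif1a stood at 0.23 in KPP without passing. Myc, which fell in C26, stood at 1.45 in KPP as deposited, also without passing. It was called higher with median centring (1.46, adjusted p = 0.0359 by limma) and with quantile normalization (1.48, adjusted p = 0.0491). Myc missed in KPP with the 4 others as the yardstick (1.25, adjusted p = 0.0886). It also missed with the glycolytic pair (1.86) and with the positive controls (2.06).

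Of 9 muscle genes listed, 8 were tested. In C26, 2 rose and 1 fell, with a list median of 0.07 against -0.31 for all genes tested, of which 10.3% were called higher and 20.7% lower. Mef2c, a transcription factor of muscle fibers, had a mean signal of 2713 in tumor-bearing samples against 1325 in controls (1.16, adjusted p = 0.0148 by limma). Hspb2, a small heat shock protein of muscle, had 759 against 456 (0.77, adjusted p = 0.0371). Hdac4, a deacetylase that represses MEF2 factors, had 141 against 427 (-1.50, adjusted p = 0.00326). Scaled to the glycolytic pair, Mef2c stood at 0.34 (adjusted p = 0.371) and Hspb2 turned to -0.04 (adjusted p = 0.918), while Hdac4 stood at -2.31 (adjusted p = 0.000637). With median centring Hdac4 missed the threshold (-0.93, adjusted p = 0.0573). None of the 8 passed in LLC or KPP.

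The panel genes most like the glycolytic ratio were ranked by Pearson's r over the 18 samples, each centred on its model's mean, among 123 genes above the limit in each model, with panel genes centred on the sample median. The samples share the group differences, and this is a description with no test. The 5 highest were Map2k6 (0.91), a kinase upstream of p38, Prkca (0.88), a protein kinase C, Mef2c (0.87), the adaptor Grb2 (0.86) and the kinase Rps6ka5 (0.85). Spearman's rho ran from 0.87 to 0.89 for these 5, and r was 0.80 to 0.85 without the 2 samples farthest from the median ratio, C26 control C and KPP tumor B. Within groups, with group means removed, r was 0.85 for Map2k6, 0.83 for Prkca, 0.71 for Mef2c, 0.77 for Grb2 and 0.70 for Rps6ka5. The lowest were Myc (-0.83), Myd88 (-0.75), an adaptor of Toll-like and IL-1 receptors, the receptor Tlr4 (-0.75), the transcription factor Maff (-0.69) and the IL-6 receptor Il6ra (-0.68). With group means removed r was -0.63 for Myc, -0.36 for Myd88, -0.75 for Tlr4, -0.66 for Maff and -0.48 for Il6ra. Without the same 2 samples it was -0.68 for Myc, -0.70 for Myd88, -0.56 for Tlr4, -0.46 for Maff and -0.38 for Il6ra. The quartiles over all 123 genes were -0.23 and 0.58. Map2k6 was called in both C26 and KPP, in opposite directions. Its mean signal was 392 in C26 tumor-bearing samples against 85.0 in controls (2.26, adjusted p = 0.00266 by limma), and 220.4 in KPP tumor-bearing samples against 1085 in controls (-2.61, adjusted p = 0.00213 by limma).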

How the data were processed

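The deposited table holds a normalized signal for 266 rows: 254 genes, 8 negative and 4 positive controls. The labels used here do not describe its making; what follows was read from the deposited values. Each model was scaled to the geometric mean of its 6 housekeeping genes. Background had been subtracted per sample in C26 and KPP, with low values written near 1; in LLC, values under 20 were written as 20. Control probes were not scaled. Low values lie on steps of each sample's own size, matched to within 0.1 of a step; they give the scale factor and the counts behind a signal, less the subtracted background. That background could not be read, so the planned addition of it was not run; adding the mean LLC negative count (5.83) was tried instead, chosen after seeing the data. No pair of samples was identical. No label names a cartridge or scan. Counting errors cover counting only.

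Groups and letters come from the sample titles. Genes were tested when at least 3 of 18 samples reached 20, counting LLC values only above the floor (168 panel genes and the 6 housekeeping genes, 174 in all). The log2(signal + 1) values of all 18 samples were fitted with a mean for each group in limma 3.58.1 (R 4.3.3), leaving 12 residual degrees of freedom, with Benjamini-Hochberg adjustment over 174 genes and a two-sided threshold of 0.05; fold changes are on that scale, which understates changes of low genes. Every adjusted p of a gene is limma's. The fit was tested on simulated data. SE is limma's, SD is over 3 samples. Ratios used the signal with no pseudocount. Promoter sequences and symbols come from the RefSeq tables of GRCm38.p6, in which all 6 genes matched; no file names a genome build.

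Named genes are the 6 members, measured genes of a hypoxia and a muscle list, and the 5 highest and 5 lowest by correlation with the ratio. Members, lists and tests were chosen with earlier results of these data known. Same-letter samples of a model did not deviate together (correlations from -0.34 to 0.25), so letters were not taken as pairs. Alternatives were other scalings, filters, a pseudocount of 20, a fit of each model alone, the letters as a block and leaving out each sample; scaling to single housekeeping genes was added after seeing the data.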

Additional observations from a re-analysis of the deposited data

Results flagged for a closer look

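The tumor effects on both glycolytic genes differed between C26 and KPP when the spread was shared by all 18 samples. For Pgk1, tumor-bearing minus control was 0.85 in C26 and -0.55 in KPP on the log2 scale, a difference of 1.40 (95% interval 0.68 to 2.11, adjusted p = 0.0104 by limma over 174 genes). All 3 tumor-bearing samples were above the controls in C26, and 2 of 3 below them in KPP. For Gapdh it was 0.79 in C26 and -0.27 in KPP, a difference of 1.06 (95% interval 0.34 to 1.77, adjusted p = 0.0422 by limma). The Pgk1 difference passed in all 18 fits that left out 1 sample, the Gapdh difference in 4 of 18, and neither passed with the spread taken from C26 and KPP samples alone (adjusted p = 0.0625 and 0.141). On the scale of the positive controls both differences turned, to -0.25 for Pgk1 and -0.59 for Gapdh, and neither passed (adjusted p = 0.799 and 0.546), so the test bears on these genes relative to the other housekeeping genes. Strain, tumor model and any separate processing of the models cannot be told apart in this contrast.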

How the results depend on the processing

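The C26 glycolytic ratio (log2 difference 1.23) ran from 1.10 to 1.44 under other divisors and 1.08 to 1.39 without single samples, and the KPP ratio (-0.61) from -1.09 to -0.20 and -1.04 to -0.20. The LLC ratio (-0.17) turned to 0.061 with Gusb as divisor, moved to -0.37 with Hprt, and ran from -0.23 to -0.10 without single samples. Genes called in C26 (54) became 98 with the glycolytic pair as yardstick, 92 with Gapdh, 99 with Pgk1, 23 with Hprt, 27 with Tubb5, 4 in a fit of C26 alone, and 31 to 57 without single C26 samples. Housekeeping genes called in C26 (2, both higher) became 1 higher with quantile normalization, 1 lower with positive controls and 3 lower with the glycolytic pair. They became 4 with Pgk1, 0 with Hprt, with Tubb5 or in a fit of C26 alone, and 0 to 3 without single samples. Of all genes tested, 95 of 174 were called lower with the glycolytic pair, 96 of 173 with Pgk1 and 60 of 174 with positive controls. Genes called in KPP (19) became 8 with the glycolytic pair, 3 with positive controls, 5 with Gapdh, 11 with Pgk1, 12 with Gusb, 7 in a fit of KPP alone and 8 to 17 without single KPP samples; housekeeping genes called in KPP (0) were 0 to 1 without single samples. Between models the 2 calls became 4 with median centring and 1 to 5 without single samples. Gapdh in C26 (0.79) turned to -0.029 with the glycolytic pair, -0.057 with Pgk1 and -0.25 with positive controls, and Pgk1 (0.85) to -0.19 with positive controls. Gapdh in C26 minus KPP (1.06) turned to -0.17, -0.34 and -0.59 in the same order, and Pgk1 (1.40) to -0.25 with positive controls. A yardstick that holds the gene itself fixes its value by construction; the cause of the other changes was not tested.

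With the letters as a replicate block, which by construction leaves the ratios at 1.23, -0.17 and -0.61, C26 called 36 genes and 0 of the 6, KPP 2 genes, and between models 0 of the 6. Depth was lowest for Gusb in C26 tumor-bearing samples, at 20 to 61 counts.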
